A study of Mus musculus with 17 samples.

Results

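The genes described here are the 4 adult hemoglobin genes of the mouse, Hba-a1, Hba-a2, Hbb-bs and Hbb-bt, and Alas2, which encodes the erythroid form of the first enzyme of heme synthesis. They were chosen by name as 5 of the 38355 Ensembl identifiers counted in each library, and all 5 passed the filter on low counts in both comparisons. The question put to them was how much hemoglobin RNA each hippocampal library held, whether that amount moved with age, and which other genes moved with it.

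The libraries came from polyA RNA of hand-dissected hippocampus of untreated wild type C57BL/6J mice. Single-end reads of 50 bases were sequenced from mice of 3 months (3M, n = 5) and 24 months (24M, 6 libraries), and paired-end reads of 100 bases from mice of 3 months (n = 3) and 29 months (29M, n = 3). Comparisons paired each aged group with young mice sequenced the same way, so between the comparisons age and library type cannot be told apart. The sources used here describe perfusion for the mice used in histology, and neither perfusion nor sex for the mice sequenced. Libraries held between 9213474 and 28438296 reads counted on genes. All 8 genes of a list of hippocampal neuron markers (Prox1, Wfs1, Neurod6 and others) were detected in every library, with a summed level of 839 to 1048 CPM (counts per 1000000 counts on all genes of a library). The 24M replicates 1 and 4 differed by less than the sampling noise over genes of 20 to 99 counts (mean ratio of squared difference to counting variance 0.406, against 1.23 or more in the other pairs of libraries), so the mean of both stood for 1 sample and the 24M group had n = 5.

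Hemoglobin is the oxygen carrier of red blood cells and is built of alpha and beta chains, each holding a heme group. Mature red cells of mammals have lost their nucleus, while reticulocytes, the youngest red cells in blood, still hold large amounts of globin mRNA. In brain tissue that was not flushed of blood, these transcripts are commonly read as a trace of the blood left in vessels, although neurons and glia have also been described to make low levels of hemoglobin chains. Alas2 belongs to the same erythroid program and sets the rate of heme synthesis in red cell precursors, whereas Alas1 serves all other cells.

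The alpha genes lie at chr11:32283511-32284465 (Hba-a1) and chr11:32296489-32297298 (Hba-a2) on the plus strand of GRCm38. The beta genes lie at chr7:103826534-103828096 (Hbb-bs) and chr7:103812524-103813996 (Hbb-bt) on the minus strand, and Alas2 lies at chrX:150547375-150570638 on the plus strand. The coding sequences of Hba-a1 and Hba-a2 differed at 1 of 426 bases, and those of Hbb-bs and Hbb-bt at 1 of 441 bases (GENCODE vM21, stop codons left out). The 60 coding bases around these positions are shown because a read that aligned equally well to both copies was not counted for either; the capital marks the base that differs, and all 4 stretches lie in the last coding exon. They are chr11:32284313-32284372 for Hba-a1 and chr11:32297130-32297189 for Hba-a2 on the plus strand, and chr7:103826668-103826727 for Hbb-bs and chr7:103812659-103812718 for Hbb-bt on the minus strand, each written 5′ to 3′ along its gene.

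Hba-a1: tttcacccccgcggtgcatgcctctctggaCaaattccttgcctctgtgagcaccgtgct
Hba-a2: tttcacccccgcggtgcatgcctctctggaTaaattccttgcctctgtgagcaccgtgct
Hbb-bs: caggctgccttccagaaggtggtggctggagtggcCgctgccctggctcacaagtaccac
Hbb-bt: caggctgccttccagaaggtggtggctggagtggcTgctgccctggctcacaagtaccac

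Of the coding windows of 50 bases, 331 of 377 were identical between the alpha genes and 367 of 392 between the beta genes. Over the whole of the longest coding transcript, the windows of 50 bases found in no other gene's transcript numbered 211 of 650 for Hba-a1, 66 of 505 for Hba-a2, 198 of 579 for Hbb-bs and 273 of 654 for Hbb-bt. With windows of 100 bases they numbered 261 of 600, 116 of 455, 198 of 529 and 273 of 604, in the same order. For Alas2, 1713 of 1988 windows of 50 bases and 1725 of 1938 windows of 100 bases were its own, and most of the others lie where its transcript overlaps that of Apex2. Counts of the hemoglobin genes therefore rest on part of each transcript, and the split of reads between the copies is uncertain. The genome itself was not searched.

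The 100 bases before the RefSeq start of an alpha and a beta gene are shown because the genes of both chains rose and fell together between libraries of a group (GRCm38.p6, 5′ to 3′ on the strand of the gene). They are chr11:32296392-32296491 on the plus strand for Hba-a2 and chr7:103827929-103828028 on the minus strand for Hbb-bs. Capitals mark matches on either strand to 3 motifs known from globin promoters: the TATA box, searched as TATAA, the CAAT box, searched as CCAAT, and the box searched as CACCC. No 2 of the matches in capitals overlap.

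Hba-a2: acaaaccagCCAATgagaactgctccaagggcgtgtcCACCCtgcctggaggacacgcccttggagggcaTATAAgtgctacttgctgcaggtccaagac
Hbb-bs: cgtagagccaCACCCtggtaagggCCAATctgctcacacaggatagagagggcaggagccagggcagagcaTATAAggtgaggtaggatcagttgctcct

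All 4 hemoglobin genes had a match to each of the 3 motifs in this window, as did 0.472% of 32851 promoters of the same length; the CAAT box alone was found in 18.9%, the CACCC box in 27.2% and the TATA box in 10.2%. The windows of Hba-a1 and Hba-a2 were identical over 97 aligned positions. Alas2 had 3 adjacent matches to CACCC and none to the CAAT or TATA box, and it was the only one of the 5 with a match to AGATAA, a form of the site bound by GATA factors, which 3.59% of promoters held. These matches describe the sequence and do not show binding.

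Reads counted for the alpha genes gave a low level in every library, with reads shared between the copies left out. Hba-a1 stood at 9.26, 14.1, 8.72, 10.8 and 11.1 CPM in the 3M single-end libraries, and at 11.0 to 66.6 CPM with a median of 18.0 in the 6 libraries of the 24M group. It stood at 20.1, 25.9 and 21.0 CPM in the 3M paired-end libraries and at 25.2, 47.3 and 56.5 CPM at 29M. Replicate 2 of the 24M group held the highest level, 2.67 times that of the next library of its group, and 4 of 6 libraries at 24M and 2 of 3 at 29M lay above every 3M library of their type. Hba-a2, the second alpha gene, stood at 5.20, 9.92, 6.15, 7.89 and 7.74 CPM at 3M and at 6.51 to 48.6 CPM with a median of 11.9 at 24M. Paired-end libraries had 6.88, 10.6 and 8.02 CPM at 3M and at 7.09, 16.9 and 20.1 CPM at 29M. The same libraries were high and low as for Hba-a1: 24M replicates 3 and 6 and 29M replicate 1 lay within the range of the 3M libraries.

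Hbb-bs, an adult beta chain gene, had the most counts of the 5 genes in every library. It stood at 29.7, 64.7, 40.9, 52.1 and 45.0 CPM in the 3M single-end libraries and at 45.6 to 325 CPM with a median of 75.3 at 24M. Paired-end libraries had 32.7, 37.6 and 35.8 CPM at 3M and at 35.8, 65.9 and 71.1 CPM at 29M. The 3M paired-end libraries lay closest together, between 32.7 and 37.6 CPM, while the 24M libraries spanned 7.14 times. Hbb-bt, the second adult beta gene, stood at 5.29, 13.2, 7.91, 10.3 and 10.1 CPM at 3M and at 7.49 to 61.3 CPM with a median of 16.4 at 24M. It stood at 5.56, 6.64 and 4.83 CPM in the 3M paired-end libraries and at 4.27, 10.2 and 11.4 CPM at 29M. For both beta genes the 24M libraries above all 3M libraries again numbered 4 of 6, and the 29M libraries 2 of 3, with the aged and young ranges overlapping at both ages.

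Alas2 stood at 3.97, 7.05, 4.01, 5.17 and 5.72 CPM in the 3M single-end libraries and at 6.51 to 40.2 CPM with a median of 9.49 at 24M. Paired-end libraries had 3.65, 4.25 and 3.83 CPM at 3M and at 4.70, 8.01 and 8.40 CPM at 29M. At 24M all but replicate 6 lay above the 3M libraries, and at 29M all 3 did, so that Alas2 was the only one of the 5 genes whose groups did not overlap, at 29M. Among all genes tested, 11.9% had every 29M sample above every 3M sample. Each value rested on 42 to 532 counts for Alas2 and 393 to 4307 for Hbb-bs.

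**Figure D1:**
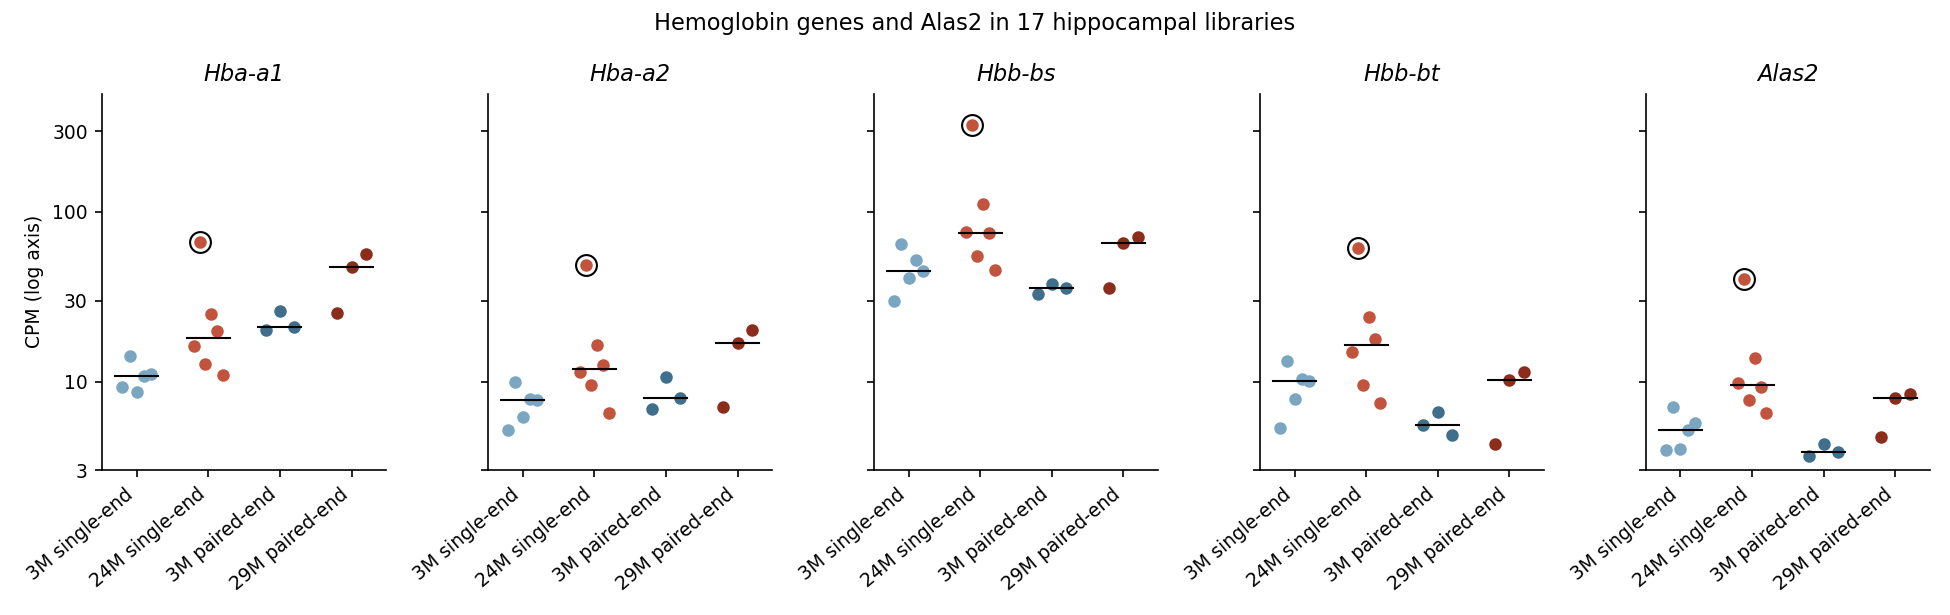
CPM on a log axis of each of the 5 genes in the 17 libraries, 1 point per library, with the median of the libraries of each group as a line; the ring marks 24M replicate 2. Replicate 2 is the highest of the 17 libraries for all 5 genes (66.6 CPM for Hba-a1, 325 CPM for Hbb-bs), and 29M replicate 1 sits near the 3M paired-end libraries.

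Summed over the 4 hemoglobin genes, the level was 49.5, 102, 63.6, 81.1 and 74.0 CPM in the 3M single-end libraries and 118, 502, 87.0, 176, 125 and 70.5 CPM in 24M replicates 1 to 6. It was 65.3, 80.7 and 69.7 CPM in the 3M paired-end libraries and 72.4, 140 and 159 CPM at 29M. The highest share of all gene counts was thus 0.0502%, in 24M replicate 2, and the lowest 0.00495%, in 3M single-end replicate 1. Reads shared between the copies were left out of these sums and shares. They therefore understate the hemoglobin RNA, by an amount that was not measured and can differ between the library types. Per kilobase of annotated exon, Hbb-bs ranked first and Alas2 last in all 17 libraries (medians 67.9 and 2.71 CPM per kilobase). The order of the other genes changed between libraries: Hba-a1 ranked second in 9 and Hbb-bt in 8, and the medians of Hba-a2 and Hbb-bt were 14.3 CPM per kilobase each. Hba-a1 ranked second in every paired-end library, and Hbb-bt did so in single-end libraries only. The length used was that of all annotated exons, while only part of each hemoglobin transcript could yield counts. The order by RNA amount can therefore differ from this one.

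Between 24M and 3M, the 5 genes were 2.44- to 2.94-fold higher in the fit, and none passed the test. Log2 fold changes were 1.29 (SE 0.40) for Hba-a1, 1.32 (SE 0.44) for Hba-a2, 1.37 (SE 0.45) for Hbb-bs, 1.32 (SE 0.46) for Hbb-bt and 1.55 (SE 0.44) for Alas2. Adjusted p-values lay between 0.0526 for Alas2 and 0.0954 for Hbb-bt by edgeR (quasi-likelihood, Benjamini-Hochberg over 15683 genes). Unadjusted values in the same edgeR fit, between 0.00320 and 0.0128, lay under 0.05 for 5 of the 5, as they did for 26.1% of genes. Calls required an adjusted p no higher than 0.05 together with a log2 fold change of 0.5 or more in size; 1.98% of genes met both in either direction and 1.34% did so upward, against 0 of the 5. Samples at 24M lay above all 3M samples in 3.15% of genes and for 0 of the 5. The median log2 fold change was 1.32 for the 5 genes and -0.00319 for all genes tested. With bulk RNA, more red cells and more hemoglobin RNA per cell cannot be told apart.

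The size of the difference at 24M rested on replicate 2. Without it, log2 fold changes fell to between 0.55 for Hbb-bs and 0.79 for Alas2, all still above 0, and adjusted p-values in edgeR were 0.0683 for Alas2 and 0.126 to 0.272 for the hemoglobin genes, whose adjusted p-values over all alternatives ran from 0.0313 to 0.425. With no other change to the edgeR fit, 0 members were called with this library (1.98% of all genes called) and without it (0.753%). The count was 1, Alas2 (adjusted p = 0.0275 in edgeR), when replicates 1 and 4 were also kept apart. That fit was added after the data were seen and called 1.81% of genes. Alas2 was the member whose call changed most often: it passed in 10 of 26 alternative fits, with adjusted p-values from 0.00789 to 0.121, among them DESeq2 with replicate 2 (0.0359) and without it (0.00789, a fit added after the data were seen). All 5 genes were called when the 4 groups shared 1 fit, in which 3.23% of genes were called, and 4 were called without the filter on low counts, in a fit that called 398 genes (1.51%).

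Between 29M and 3M, 2 of the 5, Hba-a1 and Alas2, were called higher, as were 1.34% of all 15097 genes tested; 0.113% were called lower and 1.45% in either direction. All 5 had an unadjusted p under 0.05 in edgeR, as did 17.3% of genes. Hba-a1 rose by 0.95 on the log2 scale (SE 0.21, adjusted p = 0.0307) and Alas2 by 0.85 (SE 0.21, adjusted p = 0.0478). Log2 fold changes of the others were 0.72 (SE 0.18, adjusted p = 0.0567) for Hbb-bs, 0.79 (SE 0.28, adjusted p = 0.163) for Hba-a2 and 0.60 (SE 0.27, adjusted p = 0.277) for Hbb-bt. The 29M samples lay above all 3M samples for 1 of the 5 genes, Alas2, and for 11.9% of all genes tested. The median log2 fold change was 0.79 for the 5 genes and -0.0021 for all genes.

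Single libraries decided these calls. Without 29M replicate 1, the library with hemoglobin levels near those at 3M, all 5 genes were called higher, with log2 fold changes of 0.93 to 1.23, in a fit that called 0.819% of genes. Without 29M replicate 2 (1.45% of all genes called) or 29M replicate 3 (0.812%), none of the 5 was called. Without 3M paired-end replicate 1 (1.09%) or 3 (0.96%) none was called either, and without 3M paired-end replicate 2 (1.27%) only 1 was. DESeq2, which called 0.89% of genes, called none of the 5, with adjusted p-values from 0.0611 for Alas2 to 0.833 for Hbb-bt. Over the 16 alternative fits Hba-a1 and Alas2 were each called in 9, and the adjusted p of Alas2 ran from 2.97e-05 without the filter on low counts to 0.700.

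**Figure D2:**
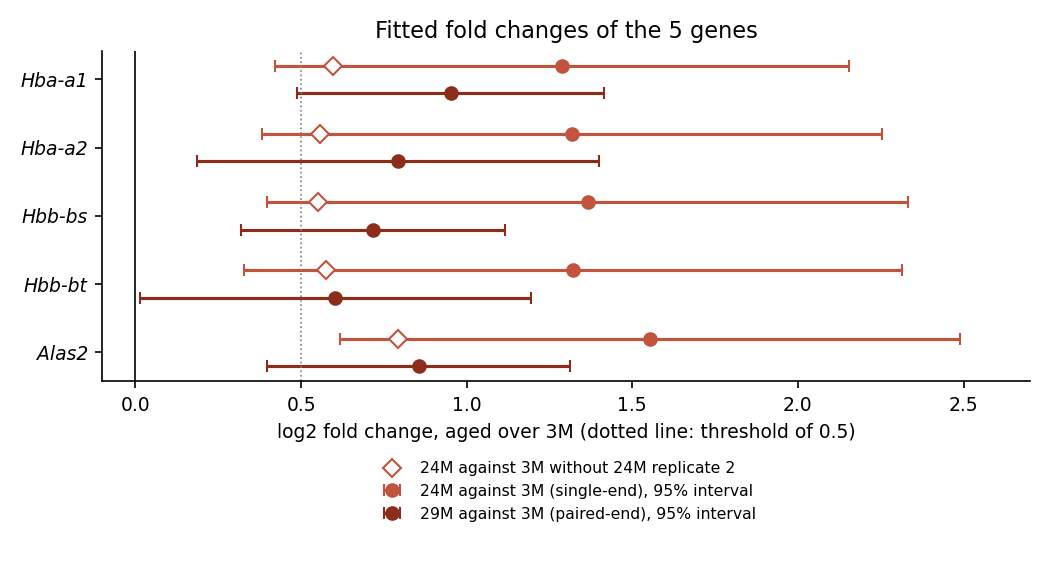
Fitted log2 fold changes of the 5 genes (points) with 95% intervals (bars) for 24M against 3M and 29M against 3M, and the 24M values without replicate 2 (open diamonds, drawn without intervals); the dotted line is the threshold of 0.5. All 10 points lie above 0, and without 24M replicate 2 the 24M values fall to 0.55 to 0.79.

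The change at 29M was not shown to differ from that at 24M for any of the 5 genes. The 29M change minus the 24M change was -0.34 on the log2 scale for Hba-a1 (95% interval -1.60 to 0.92), -0.52 for Hba-a2 (-1.99 to 0.94), -0.65 for Hbb-bs (-2.09 to 0.79), -0.72 for Hbb-bt (-2.36 to 0.92) and -0.70 for Alas2 (-2.19 to 0.79), with adjusted p-values of 0.751 to 0.875 in edgeR. The intervals include 0 and span more than 2 log2 units each, so like changes at both ages are not shown. Of 16055 genes, 0 passed this test, and 1674 (10.4%) had an unadjusted p under 0.05; DESeq2 also gave 0. Without 24M replicate 2 all 5 differences turned positive, from 0.02 for Hbb-bt to 0.35 for Hba-a1.

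Variation between mice of the same group was large for these genes. Within the 24M group, the SD of log2(CPM + 0.5) was 1.0 for Hba-a1, 1.06 for Hba-a2, 1.11 for Hbb-bs, 1.15 for Hbb-bt and 1.01 for Alas2, while the median gene had 0.123. By this SD they ranked 15, 10, 7, 3 and 12 of 15683 genes. The highest 24M sample exceeded the lowest by 1.81 times for Alas2 to 2.61 times for Hbb-bt without replicate 2, and by 6.17 and 8.18 times with it. At 29M their SDs were 0.43 to 0.77 and their ranks 34 to 354 of 15097 genes. In the 3M groups they stood out less, with ranks from 452 to 2631 in single-end libraries and from 1295 to 7042 in paired-end libraries.

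In 24M replicate 2, a library singled out after its values were seen, the 5 genes held ranks 1 to 5 of 15683 genes by their ratio to the median of the other 24M samples. The ratios of CPM were 5.0 for Hbb-bs, 4.74 for Alas2, 4.47 for Hbb-bt, 4.43 for Hba-a2 and 4.11 for Hba-a1, and the median over all genes was 1.0. The interferon-induced genes Ifi27l2a (4.095), Ifit1 (3.89) and Usp18 (3.87) held ranks 6 to 8, close behind Hba-a1, and 15 genes exceeded 3. With 0.5 added to each CPM the 5 genes again held ranks 1 to 5, from 4.97 for Hbb-bs to 4.02 for Hba-a1, and 8 genes exceeded 3.

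The hemoglobin genes also differed between 24M replicates 1 and 4, whose counts agree within sampling noise over genes of 20 to 99 counts. Replicate 4 exceeded replicate 1 by 1.54-fold for Hba-a1, 1.45-fold for Hba-a2, 1.46-fold for Hbb-bs, 1.61-fold for Hbb-bt and 1.40-fold for Alas2. The Hbb-bs difference (1066 against 1626 counts) was 9.63 times its counting noise and ranked 14 of 15093 genes with at least 20 counts, whose median absolute log2 ratio was 0.0753. In all, 544 genes differed by more than 3 times their counting noise. Because the pair entered the fits as its mean, this difference did not enter the error there.

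The ratios between the genes followed the library type. Counts of Hba-a1 were 0.205 to 0.311 times those of Hbb-bs in the 11 single-end libraries and 0.588 to 0.795 times in the 6 paired-end libraries. Hba-a2 stood at 0.562 to 0.755 times Hba-a1 in single-end and at 0.281 to 0.408 times in paired-end libraries. Neither pair of ranges overlapped. Hbb-bt over Hbb-bs ran from 0.164 to 0.239 and from 0.119 to 0.177, which overlapped. Over the same libraries 22.9% to 26.6% of single-end reads and 10.8% to 12.7% of paired-end reads were set aside as not uniquely aligned, and the part of this in the ratios was not tested. Levels of single chains were therefore compared within a library type only.

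Within a library type the ratios spanned less than the levels did. Hba-a1 over Hbb-bs was 0.206 to 0.311 at 3M and 0.205 to 0.265 at 24M, which overlapped. In paired-end libraries it was 0.588 to 0.689 at 3M and 0.704 to 0.795 at 29M, without overlap; this ratio was not tested. In 24M replicate 2, with the most hemoglobin, the ratio was 0.205. Alas2 counts per 100 hemoglobin counts were 6.30 to 8.02 at 3M and 7.39 to 9.23 at 24M, and 5.27 to 5.58 at 3M and 5.29 to 6.49 at 29M, ranges that overlap at both ages. While the hemoglobin sum spanned 10.1-fold over the single-end libraries, Alas2 per hemoglobin count spanned 1.47-fold.

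**Figure D3:**
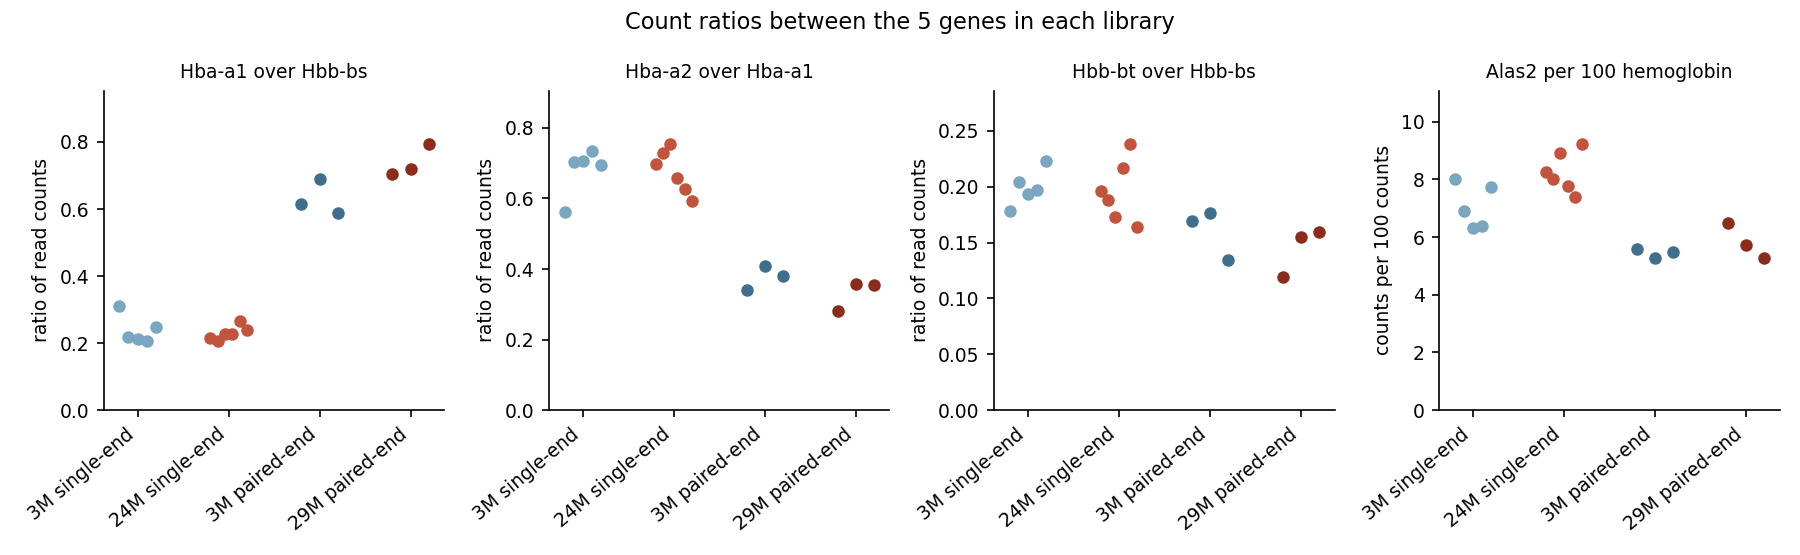
Count ratios in each of the 17 libraries (1 point per library, axes from 0): Hba-a1 over Hbb-bs, Hba-a2 over Hba-a1, Hbb-bt over Hbb-bs, and Alas2 counts per 100 counts of the 4 hemoglobin genes. The single-end and paired-end libraries separate in the first 2 panels (0.205 to 0.311 against 0.588 to 0.795, and 0.562 to 0.755 against 0.281 to 0.408).

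After the group mean was subtracted, the genes rose and fell together between libraries of the same age. Over the 10 pairs of genes, Pearson's r of log2(CPM + 0.5) was 0.958 to 0.992 and Spearman's rho 0.927 to 0.988 in the 10 single-end samples (exact permutation within groups, two-sided; adjusted p of r 0.000463 to 0.00111 and of rho 0.000463 to 0.0025, over 20 relations in both library types). Without the 2 samples farthest from the median, 24M replicates 2 and 6, r was 0.867 to 0.980. In the 6 paired-end samples r was 0.964 to 0.996 and rho 0.886 to 1.0. There the exact permutation test can give no p below 0.0278; 6 of 10 pairs had an adjusted p of r of 0.0347, and the 4 pairs with Hbb-bt had 0.0654 to 0.111. Without 29M replicates 1 and 3, r was 0.750 to 0.987. Between Alas2 and the hemoglobin genes, which shared no window of 50 bases, r was 0.958 to 0.988 in single-end and 0.980 to 0.996 in paired-end samples.

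**Figure D4:**
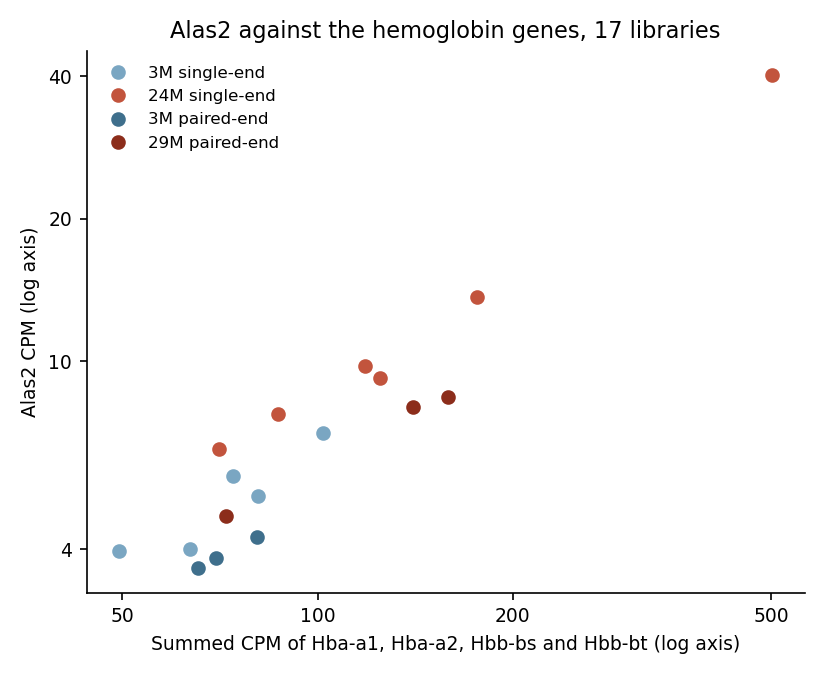
Alas2 against the summed level of Hba-a1, Hba-a2, Hbb-bs and Hbb-bt, in CPM on log axes, 1 point per library and 1 colour per group. Both rise together from 49.5 to 502 CPM of hemoglobin, with 6.30 to 9.23 Alas2 counts per 100 hemoglobin counts in single-end and 5.27 to 6.49 in paired-end libraries.

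Among 14898 genes tested in both comparisons, Alas2 had the pattern most like the mean of the 4 hemoglobin genes (group-centred log2(CPM + 0.5), 16 samples, r = 0.980, and 0.963 without 24M replicate 2), and no gene outside the 5 exceeded 0.9. The 8 next were P2ry1, a purinergic receptor (r = 0.852), Fgf7, a growth factor (0.808), Ap4s1, an adaptor complex subunit (0.804), S100a4, a calcium-binding protein (0.800), Angptl1 (0.795), Hcrtr2, an orexin receptor (0.770), Scg5 (0.758) and Oasl2, an interferon-induced gene (0.758). Without 24M replicate 2 their r was 0.534 to 0.731. Within the paired-end samples alone r was -0.198 for Oasl2, 0.218 for Scg5 and 0.449 for S100a4, against 0.929, 0.828 and 0.860 in single-end samples. These values describe 16 samples from both library types and all 4 groups, after the group mean was subtracted, and they carry no test. Of the 8, S100a4 was called higher at 24M by 0.87 (adjusted p = 0.0398) and Oasl2 at both ages, by 1.10 (adjusted p = 0.0376) and 1.51 (adjusted p = 0.000624).

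The enzymes of heme synthesis that all cells use gave no calls. Of the 8 shared enzymes from Alas1 to Fech, all were tested and 0 were called at either age, with median log2 fold changes of 0.03 and 0.04. Alas1, the housekeeping form of the first enzyme, stood at 60.8 CPM at 3M and 62.9 CPM at 24M (log2 fold change 0.05, adjusted p = 0.63). Fech, which inserts the iron, stood at 70.3 and 77.7 CPM (0.15, adjusted p = 0.0646), and Cpox at 46.1 and 51.9 CPM (0.18, adjusted p = 0.0928). At 29M the 3 genes had log2 fold changes of 0.06, 0.02 and 0.06. In 24M replicate 2, with 4.23 times the members' summed level of the other 24M libraries, the summed level of these 8 enzymes was 1.01 times theirs.

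Among the genes of heme breakdown and scavenging, 5 of 7 were tested and 0 were called at either age (medians 0.08 and -0.06). Hmox1, the inducible heme oxygenase, stood at 6.02 CPM at 3M and 8.07 CPM at 24M (0.43 on the log2 scale, adjusted p = 0.0512). Cd163, the receptor for hemoglobin bound to haptoglobin, stood at 1.27 and 2.31 CPM (0.83, adjusted p = 0.0677). Hmox2 and Blvra, the other genes of highest level, had log2 fold changes of 0.00 and -0.05. Of 10 iron genes 0 were called at either age (medians -0.02 and 0.13). Fth1, the ferritin heavy chain, was higher by 0.26 at 24M (adjusted p = 0.0233) and by 0.23 at 29M (adjusted p = 0.0308), and Ftl1, the light chain, by 0.27 at 29M (adjusted p = 0.0021), all under the fold threshold; by adjusted p alone 5.58% of genes passed at 24M and 2.99% at 29M. Tfrc, the transferrin receptor, fell by 0.27 on the log2 scale at 29M (adjusted p = 0.0222), also under that threshold, and Ireb2 had log2 fold changes of 0.20 and -0.10.

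Other erythroid transcripts were scarce. Of 20 erythroid genes other than globins, 19 were found. The filter kept 5 of them at 24M and 4 at 29M, with 0 calls (medians 0.03 and 0.10). With no filter the tests covered 19 and 17 genes and gave medians of 0.51 and 0.21, and the 1 call was that of Slc4a1, higher at 24M. Most of the counts of this list came from Tmcc2 and Bpgm, at medians of 251 and 61.4 CPM, which also are expressed outside the red cell lineage, and from Epor, the erythropoietin receptor, at 4.02 CPM. The transcription factor gene Gata1 was at 0 in 16 of 17 libraries, Cldn13 in 16 and Rhag in 13, and Klf1 had at most 7 counts; the single counts of Gata1 and Cldn13 fell in 24M replicate 2. Slc4a1, the anion exchanger of red cells, was highest in 24M replicate 2, with 32 counts (2.42 CPM, against 0.0664 to 0.90 CPM in the other 16 libraries). Epb42, a protein of the red cell skeleton, had 4 counts there and at most 2 in any other library. Both were picked after their values were seen.

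Of 10 other genes of the alpha and beta clusters, 9 were found in the files and 0 passed the filter. Hba-x, Hbb-bh0, Hbb-bh1, Hbb-bh2 and Hbb-bh3 were at 0 in all 17 libraries, and Hbb-y, an embryonic beta chain, in 13, with at most 2 counts. Hbq1a, of the theta type, had at most 10. Among the globins of brain and muscle, Cygb, cytoglobin, stood at 57.3 CPM at 3M and 54.9 CPM at 24M (log2 fold change -0.06), and Mb, myoglobin, had at most 16 counts. Ngb, neuroglobin, was called lower at 24M, as were 0.638% of genes (5.85 to 2.85 CPM, log2 fold change -1.08, adjusted p = 0.0334), and at 29M it had -0.53 (adjusted p = 0.243). Ngb no longer passed without 3M single-end replicate 1 (adjusted p = 0.058), 3M single-end replicate 4 (0.0583), 24M replicate 2 (0.0817) or the pair of 24M replicates 1 and 4 (0.0709), with a range of 0.000939 to 0.128 over its alternatives, and 3M single-end replicate 4 held 9.27 CPM, the highest of its group.

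Among the listed markers of white cells that passed the filter, Csf3r, Ighm and Igkc were called higher in an aged group. Those of platelets gave no calls. The cells that these transcripts came from were not tested. Of 12 neutrophil genes, 3 were tested at 24M and 0 called, and at 29M the 1 tested, Csf3r, was called (0.65, adjusted p = 0.0117), a call that was lost in DESeq2 (adjusted p = 0.0790) and in edgeR without 3M paired-end replicate 3 (adjusted p = 0.0625), 29M replicate 1 (0.0827) or 29M replicate 3 (0.0860), with a range of 0.000601 to 0.0860 over its alternatives. With no filter all 12 were tested (medians 1.05 and 0.82), and the calls were those of Ngp at 24M and of Csf3r and Lcn2 at 29M, all higher. Most of the summed level came from Csf3r, whose mean was 6.98 CPM at 24M and 8.77 CPM at 29M. The summed level was 5.77 to 10.9 CPM in the 3M single-end and 8.68 to 15.4 CPM in the 24M libraries, 6.63 to 7.11 CPM in the 3M paired-end and 11.1 to 12.9 CPM in the 29M libraries. The part of white cell RNA in the hemoglobin difference was not tested. The highest summed neutrophil level was that of 24M replicate 2, where S100a8 had 16 counts, S100a9 29 and Ngp 17. These 3 were picked after their values were seen. In the other 16 libraries Ngp had up to 21 counts and 1.18 CPM, against 1.28 CPM in 24M replicate 2. Csf3r, Lcn2, Ltf, Mpo, Retnlg, Cxcr2 and Elane had a higher CPM in another library than in 24M replicate 2. Of 12 platelet genes 5 were tested at 24M and 4 at 29M, with 0 called (medians -0.07 and 0.02), and their summed level was 9.97 to 16.0 CPM in all groups. Of 8 monocyte genes 3 were tested and 0 called. Of 9 B cell genes, Ighm was called at both ages (0.97, adjusted p = 0.00587, and 1.24, adjusted p = 0.0125) and Igkc at 24M (2.46, adjusted p = 0.0166). The call of Ighm at 29M was lost without 3M paired-end replicate 3 (adjusted p = 0.0628) and with robust dispersion (0.247, the highest of its alternatives, which reached down to 5.29e-45 without the filter). The summed B cell level was 10.8 to 21.9 CPM at 3M and 29.1 to 38.3 CPM at 24M, and 13.02 to 14.9 CPM at 3M and 23.2 to 55.8 CPM at 29M. Of 10 T cell genes 0 passed the filter.

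Vessel cells and choroid plexus were measured beside the blood genes because they are dissected along with them. Of 12 endothelial genes all were tested, and 1 was called: Cldn5, a tight junction gene, was lower at 24M (33.7 to 22.3 CPM, log2 fold change -0.60, adjusted p = 0.0242), a call lost without 24M replicate 2 (adjusted p = 0.0617), 24M replicate 3 (0.0563) or the pair (0.0631, the highest of alternatives that reached down to 0.000108), and, by its fold change of -0.47, without 3M single-end replicate 1. Slc2a1, the glucose transporter of the vessel wall, was higher by 0.28 at 24M (adjusted p = 0.0315), under the fold threshold. Of 8 pericyte and smooth muscle genes 0 were called at either age (medians 0.18 and -0.06), with Rgs5 at 0.40 at 24M (adjusted p = 0.0175), under the fold threshold. Of 8 choroid plexus genes 0 were called (medians 0.06 and -0.05), and of 8 hippocampal neuron genes 0 (medians -0.01 and -0.05). Ttr, the leading choroid plexus gene, stood at 1833 to 7661 CPM over the 17 libraries. In 24M replicate 2 the summed choroid plexus level was 1.41 times that of the other 24M libraries, the endothelial level 1.10 times and the pericyte level 1.18 times.

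**Figure D5:**
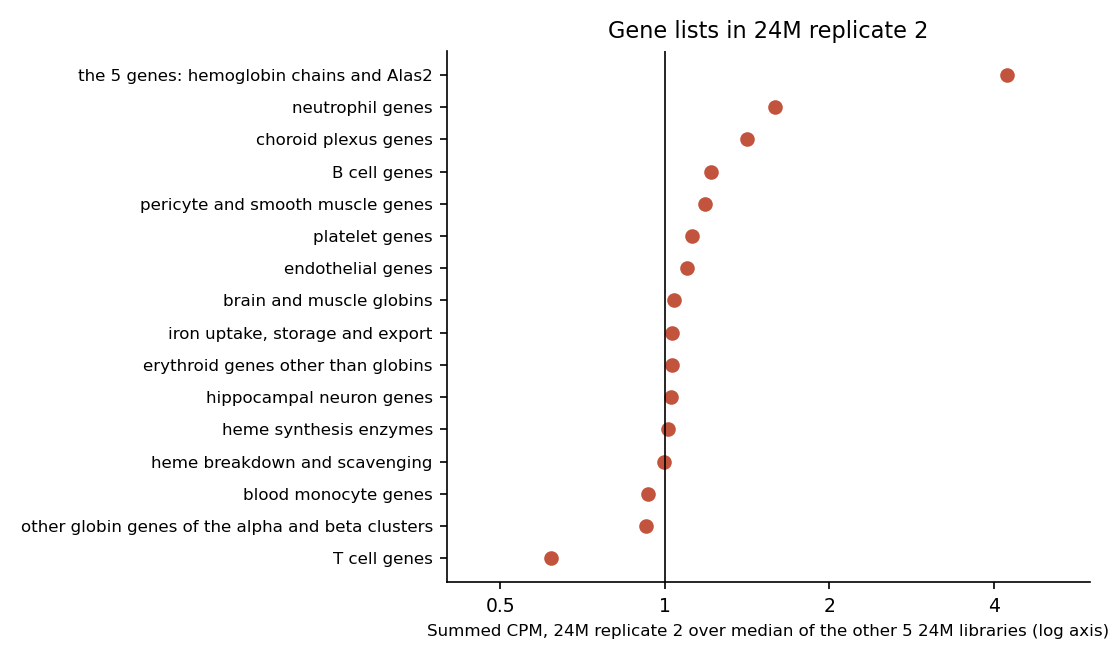
Summed CPM of each gene list in 24M replicate 2 divided by the median of the other 5 libraries of the 24M group, on a log axis, 1 point per list. The 5 genes stand at 4.23, neutrophil genes at 1.59, choroid plexus genes at 1.41 and the remaining lists between 0.619 and 1.21.

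Set against Hbb-bs over libraries, none of 25 measures passed (11 lists in single-end and 10 in paired-end samples, each with total gene counts and the share of reads without a feature). In the paired-end samples the exact permutation test can give no p below 0.0278. After adjustment over 25 measures, the paired-end ones could not pass on their own, so their failure carries no information. The highest r was that of the summed neutrophil level in the 10 single-end samples, with r = 0.681 (exact permutation p = 0.0241, adjusted p = 0.602), rho = 0.624 (exact permutation p = 0.0779, adjusted p = 0.649) and r = 0.412 without 24M replicates 2 and 6. The iron list had rho = 0.709 in single-end samples (exact permutation p = 0.0176, adjusted p = 0.347). In paired-end samples its rho was 0.657 (exact permutation p = 0.0278, adjusted p = 0.347). The summed erythroid list had r = 0.0994 in single-end and -0.409 in paired-end samples. Most of its counts came from Tmcc2 and Bpgm, at medians of 251 and 61.4 CPM. Its sum therefore could not show whether scarcer erythroid genes such as Slc4a1 moved with Hbb-bs. The summed choroid plexus level had r = 0.188 and -0.0424 in single-end and paired-end samples, the endothelial level 0.335 and -0.0201, total gene counts -0.0800 and 0.261, and the share of reads without a feature -0.181 and 0.163, none with an adjusted p below 1.0 in the exact permutation test.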

How the data were processed

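Polyadenylated RNA of 17 hippocampal samples was sequenced; per the labels, reads were aligned with STAR 2.3.0 to GRCm38.p2 and counted per gene with HTSeq, and the authors deposited raw counts, without normalization. The study's methods give the intersection non-empty mode of HTSeq as its only setting that is not the default and so name no change of the strand setting; for the annotation behind the counts, the sources used here give none. Between 23.9% and 40.3% of reads sat on lines without a gene and were left out throughout. Of 38355 identifiers 36602 were named from GENCODE vM21, and 148 of 150 list symbols were found; some genes of the lists are not reported here singly.

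The test was the quasi-likelihood one of edgeR 4.0.16 under R 4.3.3, after its default filter and TMM scaling, and p-values were adjusted (Benjamini-Hochberg) over every gene tested; DESeq2 1.42.0 was an alternative. CPM are counts per 1000000 gene counts; mean levels of single genes of the other lists are TMM-normalized CPM from the fit. Correlations used log2(CPM + 0.5). On simulated counts, 200 of 200 genes changed 4-fold were recovered in each comparison, with 7 false calls among 15683 genes at 24M and 9 among 15097 at 29M. The 5 genes had smaller fitted changes, 1.52- to 2.94-fold, so this recovery does not give the power to call them.

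The 5 genes, the other lists and the use of the mean of 24M replicates 1 and 4 were chosen with earlier results of these data known. Genes named are the 5, per list those called or among the 3 of highest mean level, and the 8 with the pattern most like the hemoglobin genes; other genes of the lists (such as Ftl1, Cd163, S100a8, Slc4a1, Epb42 and those at 0) were chosen after their values were seen. Nothing says that libraries came from separate cages or days, so p-values measure the spread between these samples. Alternatives were DESeq2, its size factors in edgeR, total counts without TMM, no filter, a filter of 1 CPM, robust dispersion, all 4 groups in 1 fit, the replicate number as a block, the members left out of scaling, no fold change threshold, each library left out, and the 24M pair kept apart or left out. Those added after the data were seen combine leaving out 24M replicate 2 or keeping the pair apart with another setting.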

Additional observations from a re-analysis of the deposited data

Results flagged for a closer look

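In groups of 5 samples, a sample was marked where its gap to the nearest other sample, divided by the range of the group, exceeded Dixon's 95% critical value of 0.71. Over 34 groups checked (17 measures in the 3M single-end and 24M samples) 8 were marked, where chance marks about 1 in 20, and the measures are not independent of one another. In 24M replicate 2, the marked values were 66.6 CPM for Hba-a1, 48.6 CPM for Hba-a2, 325 CPM for Hbb-bs, 61.3 CPM for Hbb-bt, 40.2 CPM for Alas2 and 502 CPM for the 4 hemoglobin genes together.

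In the 3M single-end group, replicate 1 was marked for the lowest ratio of Hba-a2 to Hba-a1 (0.562) and replicate 4 for Ngb (9.27 CPM).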

How the results depend on the processing

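None of the 10 fold changes of the 5 genes against 3M turned sign in any alternative run, while the calls moved. At 24M, where 0 of 5 were called (1.98% of all genes), DESeq2 called 1 (2.54%), no filter 4 (1.51%) and all 4 groups in 1 fit 5 (3.23%). The 24M pair kept apart gave 1 (2.94%), and leaving out single libraries 0 to 1 (0.753% to 3.59%). Of the fits added later, the pair kept apart in DESeq2 called 1 (3.15%). Leaving out replicate 2 called 1 with the pair apart (1.81%) and 1 in DESeq2 (1.69%). At 29M, where 2 were called (1.45% of all genes), DESeq2 called 0 (0.89%), no filter 5 (1.8%) and robust dispersion 1 (1.59%). All 4 groups in 1 fit gave 0 (0.536%), and leaving out single libraries 0 to 5 (0.812% to 1.45%). Counts over all genes moved from 310 at 24M to 518 with all 4 groups in 1 fit, 875 without the fold threshold, 163 without the pair, 511 with the pair apart in DESeq2 and 119 to 568 without single libraries, and from 219 at 29M to 441 without the filter, 86 with all groups in 1 fit, 451 without the fold threshold and 124 to 221 without single libraries. The difference between ages turned sign without 24M replicate 2 (0.35 for Hba-a1, 0.23 for Hba-a2, 0.16 for Hbb-bs, 0.0239 for Hbb-bt and 0.0562 for Alas2); without single libraries it reached -0.57, -0.81, -0.85, -0.97 and -0.88 in the same order; 0 genes passed it, and 92 without 3M single-end replicate 5, none of them among the 5. On TMM-normalized CPM, 3 of 10 paired-end pairs passed in place of 6. Without the filter 8 and 6 genes of the other lists were called in place of 4 and 2. The causes were not tested. Same-numbered samples did not deviate together (correlations -0.128 to 0.189), so the numbers do not pair the samples; with the replicate block, 0 of the 5 and 83 genes were called at 24M, and 4 of the 5 and 225 genes at 29M, and the 24M calls of Ngb (adjusted p = 0.128) and Cldn5 (0.0616) were lost. The 6 paired-end samples, and counts under 20 for most erythroid genes, limit precision.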
